A study of Mus musculus with 12 samples.

Results

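The 10 glycolytic enzyme genes described here carry glucose from hexokinase to pyruvate kinase: Hk2, Gpi1, Pfkl, Pfkp, Aldoa, Tpi1, Gapdh, Pgk1, Eno1 and Pkm. They were chosen by symbol as a list of the pathway, though with earlier results of these data known. All 10 are among the 11911 genes of the deposited table. The data are bulk RNA-seq of mouse neutrophils sorted from the heart, in 6 libraries of the control genotype (numbers 2, 6, 7, 8, 11 and 12) and 6 of the genotype labelled LOY (3, 4, 5, 10, 14 and 15), which stands for loss of Y. Each library was made from 800 left ventricular cells gated as CD45.2+, Ly6G+, CD64- and RFP+. All titles name a bone marrow transplant (BMT) control and every treatment label reads control, so the groups share transplantation, the red fluorescent protein and the treatment, and differ in the genotype label. Age, how the chromosome was lost, and whether each library is a separate mouse are not stated in the sources used here. The p-values therefore weigh differences only against the spread from library to library, which may in part be technical. In bulk RNA, fewer cells of a type and less RNA per cell cannot be told apart.

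Glycolysis splits glucose into pyruvate in the cytosol and yields ATP without oxygen. Hexokinase and phosphofructokinase, which spend ATP, and pyruvate kinase, which makes it, run nearly in one direction and are the usual points of control. The steps between them run close to equilibrium. Neutrophils hold few mitochondria and depend on glycolysis for ATP during migration, phagocytosis and the release of extracellular traps. Heart muscle burns mainly fatty acids and expresses muscle isozymes of several steps.

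The 12 genes listed as markers of mature neutrophils were all detected, and their summed normalised reads ran from 337503 to 935412 per library. The Y-linked genes Ddx3y, Eif2s3y and Uty summed to between 1032 and 1972 normalised reads in the control libraries, to 59.3 in LOY 10 and 17.9 in LOY 14, and to 0 in the other 4 LOY libraries. Values are normalised reads, the deposited counts after the authors scaled each library. Reads of listed genes ran from 6767108 to 12561174 per library. Depth averaged 9937692 ± 1846231 (SD, n = 6) in control and 8364132 ± 1408963 (n = 6) in LOY.

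One library stood apart. Control 8 held the lowest or the highest of the 12 values for 7 of the 10 enzymes, against at most 2 in any other library, and for 27.6% of the 6951 genes tested, against 9.55% to 19.9% in the others. It had the lowest values of Gpi1, Pfkl, Gapdh and Eno1 and the highest values of Hk2, Tpi1 and Pgk1. Its median Spearman correlation with the other libraries over genes was 0.490, against 0.545 to 0.620 elsewhere. It also had the highest summed neutrophil markers (935412) and the highest summed B cell markers (12353 normalised reads); their part in the enzyme values was not tested. For this reason the fold change of each of the 10 enzymes is given with and without control 8.

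The upstream sequences are shown of the 4 enzymes whose value in control 8 lay farthest, as a ratio, from the median of the other libraries: Hk2, which was highest there, and Gapdh, Eno1 and Pfkl, which were lowest. Each is the 250 bases before the first listed start site in RefSeq (GRCm38.p6), 5′ to 3′ on the gene's own strand. Capitals mark the 5-letter motifs ACGTG and GCGTG, the core that hypoxia-inducible factors are known to bind, found on either strand, so that they also read as CACGT and CACGC. The Hk2 stretch is chr6:82774455-82774704 on the minus strand, and the Eno1 stretch is chr4:150236458-150236707 on the plus strand. The Gapdh stretch is chr6:125165774-125166023 and the Pfkl stretch is chr10:78009808-78010057, both on the minus strand.
Hk2: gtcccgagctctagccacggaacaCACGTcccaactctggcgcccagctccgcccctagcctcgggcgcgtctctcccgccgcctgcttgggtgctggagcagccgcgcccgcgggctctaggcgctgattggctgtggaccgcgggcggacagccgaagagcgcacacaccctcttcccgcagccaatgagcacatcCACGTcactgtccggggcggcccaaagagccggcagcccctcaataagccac
Gapdh: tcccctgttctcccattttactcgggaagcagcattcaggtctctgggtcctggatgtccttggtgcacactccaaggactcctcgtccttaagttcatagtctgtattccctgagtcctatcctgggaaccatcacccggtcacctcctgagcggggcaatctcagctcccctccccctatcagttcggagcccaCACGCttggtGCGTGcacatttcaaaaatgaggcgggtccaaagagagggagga
Eno1: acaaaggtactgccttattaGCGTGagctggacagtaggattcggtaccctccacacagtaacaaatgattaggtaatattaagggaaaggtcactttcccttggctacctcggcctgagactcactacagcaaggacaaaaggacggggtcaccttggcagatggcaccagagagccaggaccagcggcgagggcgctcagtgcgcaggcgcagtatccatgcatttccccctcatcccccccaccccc
Pfkl: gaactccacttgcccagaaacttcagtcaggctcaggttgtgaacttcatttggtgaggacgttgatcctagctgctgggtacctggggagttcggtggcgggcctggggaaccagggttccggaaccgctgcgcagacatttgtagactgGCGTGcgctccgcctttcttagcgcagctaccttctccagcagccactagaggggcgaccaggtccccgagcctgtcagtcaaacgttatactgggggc
Hk2 held ACGTG at 2 places, beginning 226 and 52 bases before the start, and no GCGTG. Gapdh held GCGTG at 2 places, beginning 54 and 44 bases before the start. Pfkl held GCGTG once, beginning 99 bases before the start. Eno1 held it once, beginning 230 bases before this start, and at 2 places before each of its other 2 start sites. No 2 motifs overlapped in these stretches. Over the 15 start sites of the 10 enzymes, 11 stretches held either motif, and 8 of the 10 enzymes had at least 1 such stretch. Some stretches overlap, so motifs are counted again: the last 2 of Aldoa share 1 motif and the last 2 of Eno1 share 2. Among all 32851 promoters of the same length, 16.6% held ACGTG, 28.2% held GCGTG and 38.6% held either. These shares are per promoter and not per gene, so the count of 8 of 10 enzymes cannot be set against them. Enrichment was not tested. Gpi1 and Tpi1 held neither in the stretches searched. A match is a description of letters and not a binding site.

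Levels differed widely between the enzymes. Per kilobase of merged exons, the mean over 12 libraries was 2771 normalised reads for Aldoa, 2713 for Pkm, 1949 for Gapdh and 1409 for Eno1. Gpi1 followed at 637, Tpi1 at 492 and Pgk1 at 310. Among the enzymes described here, the 3 of the ATP-consuming control steps were lowest. Pfkp was at 73.8, Hk2 at 73.3 and Pfkl at 70.2 normalised reads per kilobase. Hk2 does not stand for the whole hexokinase step. Hk3, a hexokinase outside this list, was at 599 normalised reads per kilobase, above Tpi1 and Pgk1. Aldoa lay at the 98.7 percentile of all genes by this measure, and Pfkl at the 70.3 percentile. Neighbours such as Aldoa and Pkm, Gpi1 and Tpi1, or Pfkp, Hk2 and Pfkl were closer than the SD of either within a group. With the length of the principal transcript in place of merged exons, Gapdh came first at 5674 per kilobase, Pkm at 5579 and Aldoa at 5207, and Hk2 came last at 79.3. Eno1, Gpi1, Tpi1, Pgk1 and Pfkp kept their places in the order.

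Across the pathway, no difference between LOY and control passed the test. The test was limma on log2(normalised reads + 1) with Benjamini-Hochberg adjustment over 6951 genes, and 0 of the 10 enzymes passed an adjusted p of 0.05, where the background is 0.0288% of genes (2 of 6951). At an unadjusted p below 0.05, 0 of the 10 passed, against 4.37% of all genes tested. DESeq2 on the recovered reads and edgeR also called 0 of the 10, with backgrounds of 3.12% and 0%, and neither gave an enzyme an unadjusted p below 0.05. All 10 enzymes had passed the filter on low values, and in all 10 the ranges of both groups overlapped (0.201% of all genes did not overlap). Their log2 fold changes were positive for 5 and negative for 5 (50.4% of all genes were positive), with a median of -0.019 beside 0.0081 over all genes. The median standard error was 0.44 for the enzymes and 1.35 for all genes, on the log2 scale. For 4 enzymes, Gpi1, Aldoa, Eno1 and Pkm, the 95% interval lay within 1 log2 unit of no change, as it did for 395 of all genes tested (5.68%). For the other 6 a change of more than 1 log2 unit was not excluded by the interval.

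**Figure D1:**
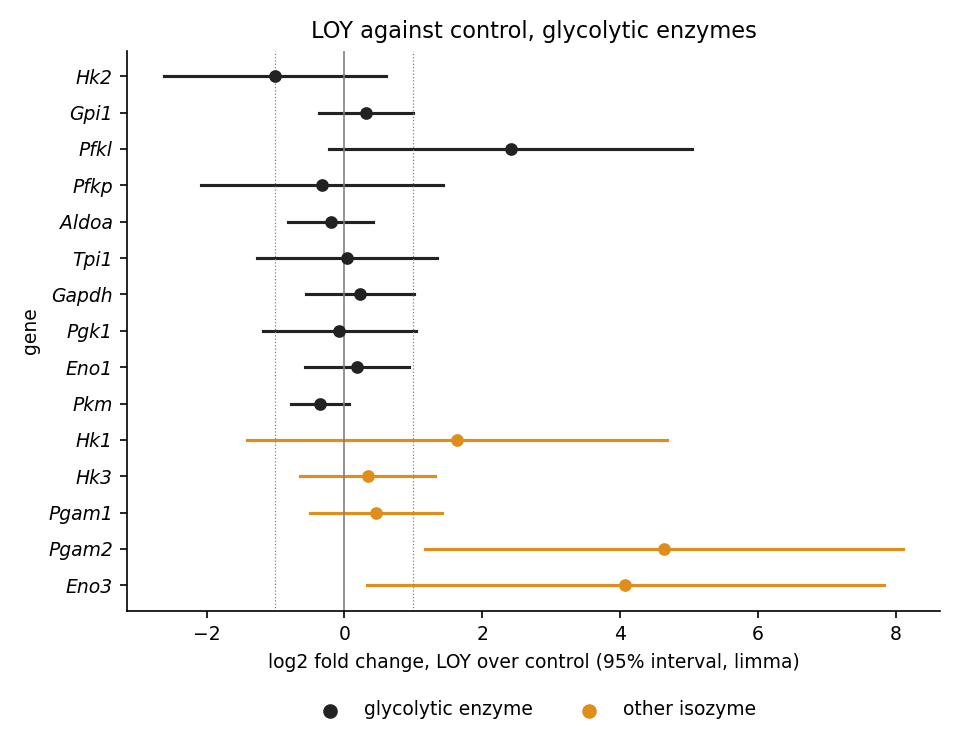
Log2 fold change of LOY over control (x axis) with its 95% interval from limma for the 10 glycolytic enzymes in pathway order (black) and 5 isozymes of the pathway outside that list (orange; 2 of them phosphoglycerate mutases); dotted lines mark 1 log2 unit on either side of 0. All 10 black intervals cross 0, and those of Gpi1, Aldoa, Eno1 and Pkm stay between the dotted lines.

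The first steps trap glucose and rearrange it. Hk2, an inducible hexokinase that phosphorylates glucose, had 162, 293, 688, 1890.2, 593 and 138 normalised reads in control 2, 6, 7, 8, 11 and 12, in that order. In LOY 3, 4, 5, 10, 14 and 15 it had 626, 135, 131, 258, 137 and 199. Control 8 stood far above the rest, LOY 3 was the highest of its group, and the groups overlapped. The means were 627 ± 658 (SD, n = 6) and 247 ± 192 (n = 6), with a log2 fold change of -1.0 (SE 0.75, limma adjusted p = 0.997). Without control 8 the log2 fold change was -0.57, a smaller distance from 0 with the same sign.

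Gpi1, glucose-6-phosphate isomerase, converts glucose 6-phosphate to fructose 6-phosphate. Its control values were 3509, 3649, 4985, 1435, 3635 and 5269 normalised reads, and its LOY values 4408, 3786, 7331, 4031, 3145 and 4145, in the same order of libraries. Control 8 was the lowest and LOY 5 the highest of the 12, and the other 10 lay between 3145 and 5269. LOY over control gave a log2 fold change of 0.31 (SE 0.32, limma adjusted p = 0.998), and 0.057 without control 8.

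Phosphofructokinase adds the second phosphate and commits the sugar to glycolysis, and its liver and platelet forms are encoded by Pfkl and Pfkp. Pfkl had 355, 971, 671, 2.53, 27.3 and 47.2 normalised reads in the control libraries and 454, 871, 573, 362, 978 and 313 in the LOY libraries. The LOY values lay between 313 and 978, while 3 control libraries lay at 355 or above and the other 3 at 47.2 or below. Its log2 fold change of 2.41 (SE 1.23, 95% interval -0.22 to 5.05) had the lowest unadjusted p of the 10 enzymes (0.070, limma adjusted p = 0.997). Without control 8 it was 1.44, and with DESeq2, which compares mean reads, it was 0.78.

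Pfkp had 569, 430.4, 931, 1826, 1274 and 432 normalised reads in control and 879.8, 2871, 687, 621, 1308.5 and 42.2 in LOY. Both the highest value, in LOY 4, and the lowest, in LOY 15, fell in the LOY group, so the control range lay inside the LOY range. A log2 fold change of -0.32 (SE 0.82, limma adjusted p = 0.999) resulted. Without control 8 it was -0.075, and with DESeq2 and with edgeR its sign turned to positive, at 0.23 in both.

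The next enzymes cleave the sugar and interconvert the products. Aldoa, the aldolase that splits fructose 1,6-bisphosphate, had 9026, 9386, 12028, 4849.7, 8166 and 7551 normalised reads in control and 3559.8, 6592, 6527, 8768, 11841 and 8486 in LOY. It was lowest in LOY 3 and second lowest in control 8, and the groups overlapped over most of their range. Aldoa gave a log2 fold change of -0.20 (SE 0.29, limma adjusted p = 0.999), and -0.35 without control 8.

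Tpi1, triosephosphate isomerase, interconverts both three-carbon products. It had 1737, 2385, 677, 2521, 1081 and 212 normalised reads in control and 752, 1553, 388, 2086, 1585 and 1269 in LOY. The values ranged widely within both groups, from control 12 at the bottom to control 8 at the top. The log2 fold change of 0.038 (SE 0.61, limma adjusted p near 1) became -0.17 with DESeq2 and 0.28 without control 8.

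The lower part of the pathway harvests energy. Gapdh, the dehydrogenase that makes 1,3-bisphosphoglycerate and a frequent reference gene, had 10779, 8638, 8660.2, 1884, 9350.1 and 7812 normalised reads in control and 7679, 10516, 6066, 9459, 8686 and 7156 in LOY. Control 8 was 4.6 times below the median of the other libraries, and the remaining 11 values differed by at most 1.78-fold. The log2 fold change was 0.23 (SE 0.36, limma adjusted p = 0.999), and its sign turned to -0.15 without control 8.

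Pgk1, the phosphoglycerate kinase that makes the first ATP of the pathway, had 602, 899, 785, 1437, 762 and 141 normalised reads in control and 579, 506, 524, 464, 733 and 916 in LOY. The highest and the lowest libraries were both control ones, numbers 8 and 12, and enclosed all LOY values. The log2 fold change of -0.076 (SE 0.52, limma adjusted p near 1) turned to 0.16 without control 8.

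Eno1, the enolase that makes phosphoenolpyruvate, had 8390.4, 13422, 8489.5, 2076, 7004 and 5979 normalised reads in control and 7008, 7479.7, 8885, 5709, 8247 and 8285 in LOY. The LOY values were the tighter group and lay inside the control range. Its means were 7560 ± 3709 and 7602 ± 1139 (SD, n = 6 each), with a log2 fold change of 0.19 (SE 0.35, limma adjusted p = 0.999). Without control 8 this turned to -0.15.

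Pkm, the pyruvate kinase that makes pyruvate and ATP, had 19139, 17971, 16388, 11909, 11882 and 13912 normalised reads in control and 11965, 16451, 11614, 9798, 13250.0 and 8549 in LOY. The 2 highest values were control libraries and the 2 lowest LOY libraries, with overlap between. The means were 15200.2 ± 3102 and 11938 ± 2766 (SD, n = 6 each). The log2 fold change was -0.35 (SE 0.20, 95% interval -0.78 to 0.07), with an unadjusted p of 0.095 and a limma adjusted p of 0.997. It was -0.42 without control 8. Counts per gene do not separate the splice forms of Pkm, which differ in regulation.

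**Figure D2:**
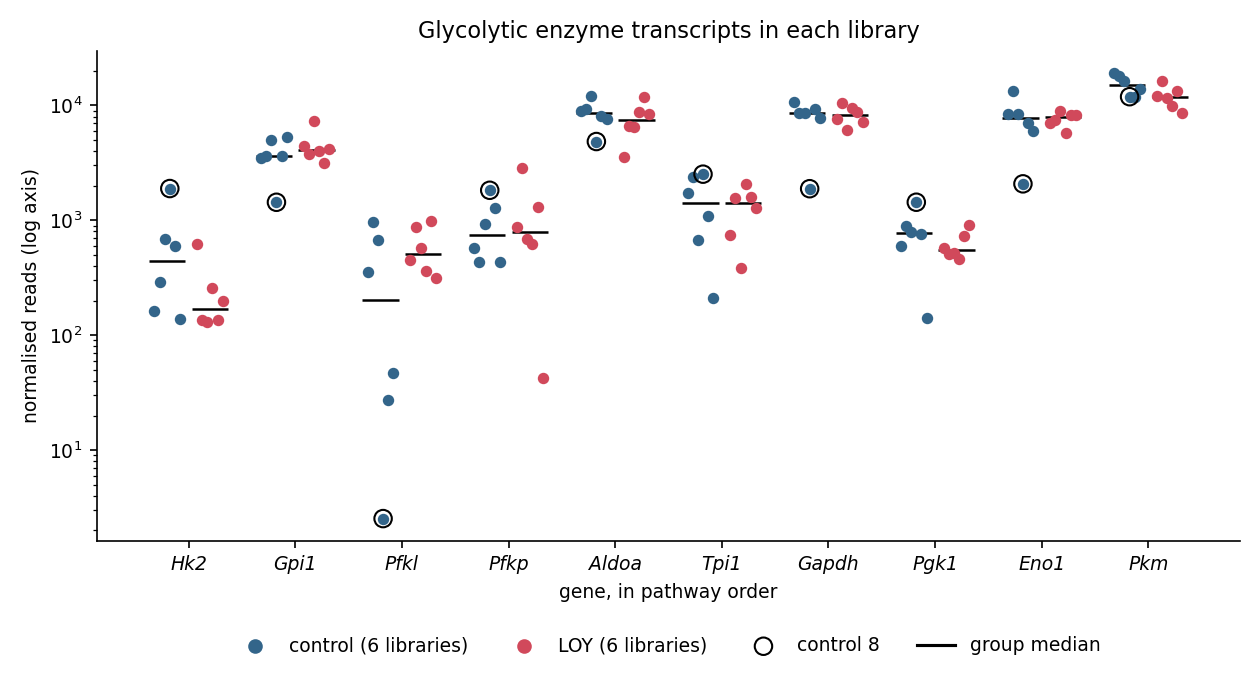
Normalised reads (log axis) of each enzyme in the 6 control libraries (blue) and the 6 LOY libraries (red), with the group median as a line and control 8 ringed. The ringed point is the lowest for Gpi1, Pfkl, Gapdh and Eno1 and the highest for Hk2, Tpi1 and Pgk1, and the groups overlap for all 10 enzymes.

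Summed over the 10 enzymes, the control libraries held 46952 ± 10618 normalised reads (SD, n = 6) and the LOY libraries 43703 ± 5410 (n = 6). Control 8 held 29830.3, below the other 11 libraries, which ran from 37910 to 58044. As a share of all listed reads the enzymes made up 0.592% ± 0.152 in control and 0.574% ± 0.081 in LOY, and 0.328% in control 8. The coefficient of variation was larger in control than in LOY for 7 of the 10 enzymes, and for 4 of the 10 when control 8 was left out.

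**Figure D3:**
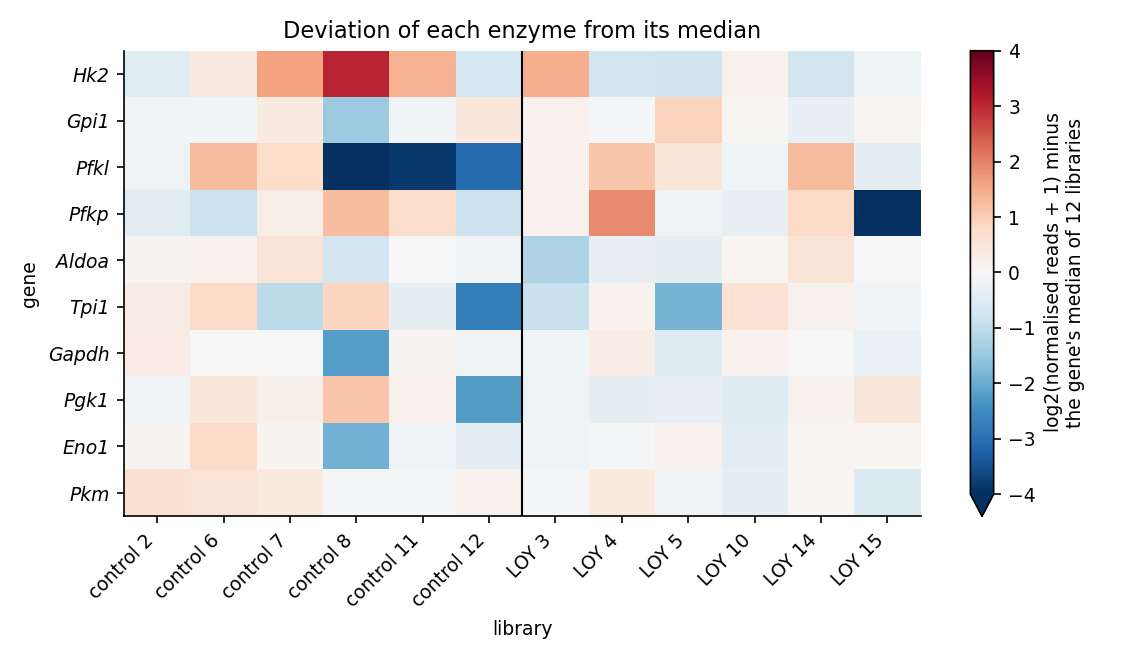
Difference of log2(normalised reads + 1) from the gene's median over 12 libraries, for each enzyme (rows, in pathway order) and library (columns, control left of the line and LOY right), with the colour scale cut at 4 log2 units. The column of control 8 holds the deepest blue of the rows Gpi1, Pfkl, Gapdh and Eno1 and the deepest red of the rows Hk2, Tpi1 and Pgk1.

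The enzymes did not move as a block from library to library. For the 9 enzymes with at least 10 normalised reads in every library (Pfkl is left out), Pearson correlations of log2 values over 12 libraries were positive for 19 of 36 pairs and negative for 17. None passed an adjusted p of 0.05 over the 36 pairs in a permutation test with 100000 resamples, and 4 had an unadjusted p below 0.05. The pair with the lowest p was Gpi1 with Tpi1, which were opposed, with r = -0.716 (n = 12, two-sided permutation p = 0.0101, adjusted p = 0.210). Its Spearman rho was -0.811 (permutation p = 0.00215, adjusted p = 0.0774). Without control 8 and LOY 5, the 2 libraries farthest from the median of Gpi1, r was -0.802, and without control 8 alone it was -0.793. Within the groups r was -0.706 in control and -0.876 in LOY. The highest r, 0.796 for Gapdh with Eno1 (permutation p = 0.0544, adjusted p = 0.256), rested on control 8. Its Spearman rho was 0.021 (permutation p = 0.956), and without control 8 r was -0.116. Within the groups this r was 0.900 in control and -0.593 in LOY, and without the 2 libraries farthest from the median of Gapdh (control 8 and LOY 5) it was -0.00053.

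At several steps the listed enzymes share their reaction with other isozymes. Among hexokinases, Hk3, the isozyme typical of myeloid cells, held 76.7% ± 26.3 of normalised reads per kilobase in control and 85.0% ± 4.1 in LOY (SD, n = 6 each). Hk3 was first in 11 of 12 libraries. In control 8 alone, Hk2 was first, with 62.4%. The log2 fold change of Hk3 itself was 0.34 (SE 0.46, limma adjusted p = 0.999), and -0.056 without control 8.

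Among phosphofructokinases, Pfkp held 63.5% ± 33.6 in control and 30.9% ± 16.2 in LOY, and Pfkl held 36.5% ± 33.6 and 41.9% ± 15.5. The muscle form Pfkm held 0% in control and 27.2% ± 25.3 in LOY. Mean normalised reads of Pfkp itself were 910 in control and 1068 in LOY. Which came first depended on the length used. Per kilobase of merged exons Pfkl was first in 6 libraries, Pfkp in 4 and Pfkm in 2. Per kilobase of the principal transcript Pfkp was first in 10, with shares of 71.6% ± 28.5 in control and 45.4% ± 21.3 in LOY. Eno1 was the first enolase in all 12 libraries with merged exons, with 93.0% ± 8.2 in control and 76.3% ± 16 in LOY, the rest being the muscle enolase Eno3. With the principal transcript length its shares were 96.8% ± 3.8 in control and 87.7% ± 9.5 in LOY. Aldoa held 100% of aldolase reads per kilobase in 11 libraries and 97.5% in control 7.

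**Figure D4:**
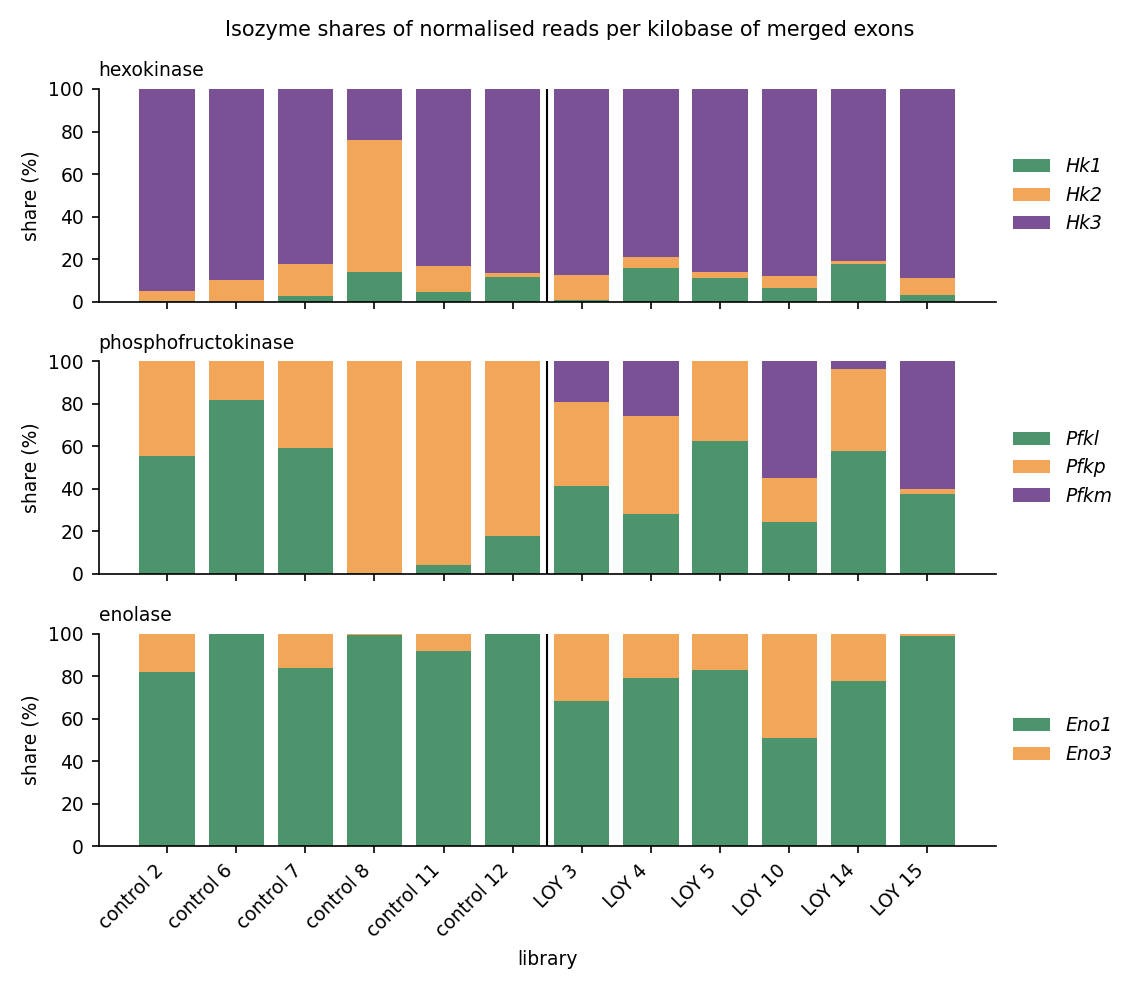
Share of each isozyme in the normalised reads per kilobase of merged exons (percent) of hexokinase, phosphofructokinase and enolase, in each library (control left of the line, LOY right). Hk3 fills most of the hexokinase bar except in control 8, and Pfkm appears in 5 of 6 LOY libraries and in no control library.

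The muscle isozymes of 3 steps, Pfkm, Pgam2 and Eno3, had higher means in the LOY libraries. Ldhb, the heart form of lactate dehydrogenase, did not, with 413 ± 214 normalised reads in control and 398 ± 595 in LOY (SD, n = 6 each). LOY 10 held 1581 normalised reads of Ldhb, and without LOY 10 its LOY mean was 161.7 ± 150 (SD, n = 5). Pfkm, the muscle phosphofructokinase, was at 0 in all 6 control libraries and at 105, 401, 0, 405, 30.5 and 251 normalised reads in LOY 3, 4, 5, 10, 14 and 15. Against a floor of 3 reads over the control group, its LOY mean of 199 ± 180.5 (SD, n = 6) was at least 471-fold higher, for counting error only. Pfkm was under the filter and so not tested in the main limma fit. With no filter, limma called 0 of the 48 genes of the related lists, Pfkm among them. The authors' deposited table calls Pfkm (log2 fold change 10.37, adjusted p = 1e-06), with the same log2 fold change as DESeq2 here. The calls of Pfkm by that table and by DESeq2 are therefore not independent.

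Pgam2, the muscle phosphoglycerate mutase, had 315, 0.75, 65.4, 0, 179.6 and 0 normalised reads in control and 94.9, 309, 631, 758, 319.5 and 344 in LOY. Eno3 had 587, 2.25, 521, 2.53, 198 and 0 in control and 1059, 636, 589, 1774, 759 and 28.8 in LOY. For both, 3 control libraries were near 0. Of the other 3, all lay within the LOY range for Eno3 and 2 did for Pgam2. The log2 fold changes were 4.64 (SE 1.62, unadjusted p = 0.012) for Pgam2 and 4.08 (SE 1.75, unadjusted p = 0.035) for Eno3, each with a limma adjusted p of 0.997, so neither passed. With DESeq2, on mean reads, they were 2.13 (adjusted p = 0.758) and 1.89 (adjusted p = 0.84). Without control 8 the limma values were 3.88 and 3.46.

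Markers of heart muscle cells also had higher means in LOY. All 15 genes of the cardiomyocyte list were detected, none at 0 in every library, and all 15 had a higher mean in LOY. Of the 14 tested, 13 had a positive log2 fold change (50.4% of all genes did) and 0 passed (limma, lowest adjusted p 0.696). An unadjusted p below 0.05 was found for 4 of them, against 4.37% of all genes, and their median log2 fold change was 1.5. Their summed normalised reads ran from 4534 to 7535 in control and from 4102 to 61271 in LOY. LOY 10 had the highest sum and the highest values of Pfkm, Pgam2 and Eno3. LOY 5 had the lowest sum of the 12 libraries and no Pfkm, but held Pgam2 and Eno3 at 631 and 589. Without LOY 10 the sums of the other 5 LOY libraries ran from 4102 to 15782, and the mean Pfkm of those 5 was 157.6 ± 167 (SD, n = 5). Without LOY 10 the log2 fold changes were 4.41 for Pgam2 and 3.71 for Eno3. The part of heart muscle RNA in these isozyme values was not tested.

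**Figure D5:**
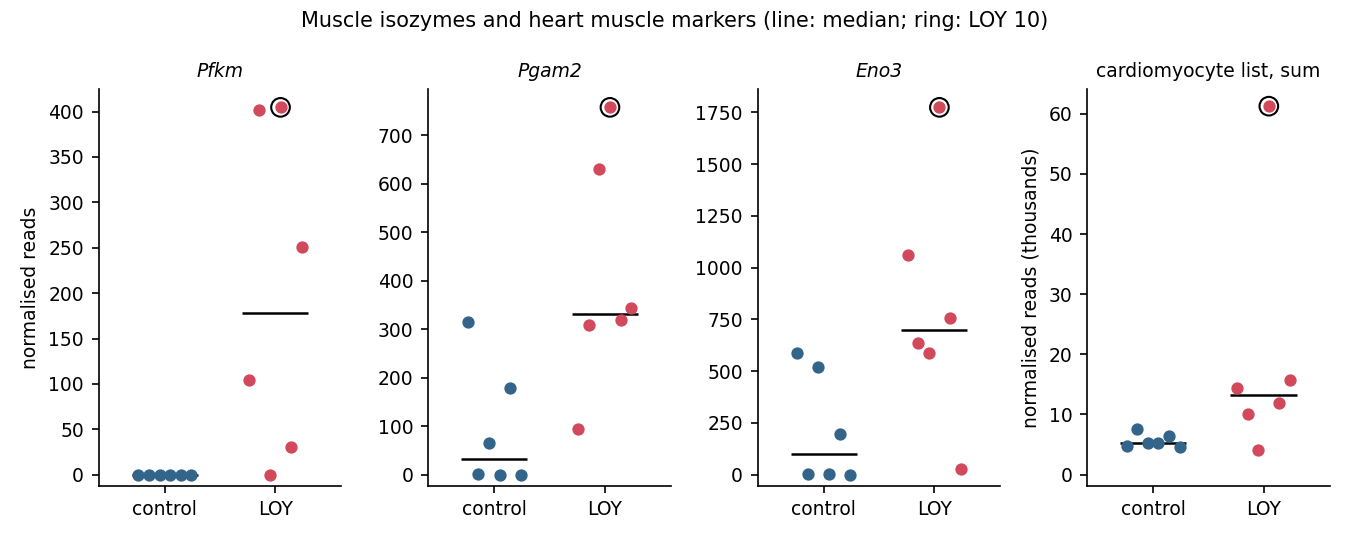
Normalised reads of Pfkm, Pgam2 and Eno3, and the summed normalised reads of the cardiomyocyte marker list, in each control (blue) and LOY (red) library, with the group median as a line and LOY 10 ringed. LOY 10 is the highest library in all 4 panels, and Pfkm is 0 in every control library.

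Endothelial and fibroblast markers had higher means in LOY as well. This held for 9 of 10 endothelial markers, of which 6 of the 8 tested had a positive log2 fold change (median 1.16, 3 with an unadjusted p below 0.05). It held for all 8 fibroblast markers, of which all 6 tested were positive (median 1.88, 1 with an unadjusted p below 0.05). None of these passed in limma. Over all genes tested, 50.4% had a positive log2 fold change and 4.37% had an unadjusted limma p below 0.05. The share of all genes with a higher mean in LOY was not computed. Endothelial markers summed to between 1062 and 4068 normalised reads in control and between 2501 and 6346 in LOY, and fibroblast markers to between 2972 and 10539 and between 5835 and 16383. Macrophage markers summed to between 7278 and 9932 in control and between 4074 and 13758 in LOY, and red cell and platelet markers to between 13.6 and 9765 and between 165 and 6986. B cell markers summed to between 3263 and 12353 and between 2996 and 8887, and of the 8 T cell markers only 2 are listed. Negative log2 fold changes were found for 6 of the 8 macrophage markers tested, 6 of 7 B cell markers and 4 of 5 red cell and platelet markers. Of the 12 mature neutrophil markers, 9 were negative (median -0.16). Their log2 fold changes ran from -2.66 (SE 1.98) for Ly6g, the gene of a sorting antigen, to 0.23 (SE 0.34) for Retnlg. The neutrophil sum averaged 610177 ± 208327 in control and 504534 ± 145740 in LOY (SD, n = 6 each). No marker of these 4 lists passed in limma. The share of the enzymes' reads that came from each cell type was not tested.

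Genes around the pathway were likewise uncalled by limma. Of 36 tested genes of the 6 related lists 0 passed the adjusted threshold, and DESeq2 called 2 of 45, Pfkm and Slc2a4, beside 3.12% of all genes. Slc2a4, the insulin-responsive glucose transporter of muscle and fat, was at 0 in all libraries but LOY 3 (115 normalised reads) and LOY 10 (76.3). The limma log2 fold changes were positive for all 5 tested isozymes (median 1.64), for 6 of 11 genes on the fate of pyruvate (median 0.14) and for 2 of 6 on glucose entry (median -0.33). They were positive for 3 of 6 pentose phosphate genes (median -0.02) and for 3 of 7 glycogen genes (median -0.29), beside a median of 0.0081 over all genes.

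Lactate dehydrogenase regenerates the cofactor that Gapdh uses. Ldha, its main form here, had means of 6002 ± 1098 in control and 6651 ± 1389 in LOY (SD, n = 6 each), with a log2 fold change of 0.14 (SE 0.21, 95% interval -0.30 to 0.59), and 0.089 without control 8. The fate-of-pyruvate genes of lowest p were Dlat at 3.31 (SE 1.96) and Pdhb at 1.61 (SE 1.29), both of the pyruvate dehydrogenase complex. Ldhb, the heart form of lactate dehydrogenase, followed at -1.46 (SE 1.18), with its highest value, 1581 normalised reads, in LOY 10. Dld, another subunit of that complex, was at -1.86 (SE 2.06).

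Among genes that feed or regulate the early steps, Pfkfb4, which sets the level of an activator of phosphofructokinase, had a log2 fold change of -0.63 (SE 0.39) and the glucose transporter Slc2a1 one of -0.81 (SE 0.51). The hypoxia-inducible factor subunit Hif1a was at 0.76 (SE 0.63) and the transporter Slc2a6 at 0.20 (SE 0.30). In the pentose phosphate pathway, Rpe was at -2.94 (SE 2.00), Pgls at -2.03 (SE 1.40), G6pdx, its entry enzyme, at 1.14 (SE 1.19) and Taldo1 at -0.21 (SE 0.26). None of these passed. Leaving out control 8 turned the sign of Slc2a6 to -0.027 and of G6pdx to -0.13, and moved Pdhb to 0.97.

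The glycogen genes spread most. Gyg, the glycogenin that primes glycogen, had 1355, 193, 338, 2443, 666 and 64.8 normalised reads in control and 40.8, 0, 3.96, 338, 393 and 2.06 in LOY. Its log2 fold change was -4.46 (SE 1.6, unadjusted p = 0.015, limma adjusted p = 0.997), and -3.98 without control 8, its highest library. Ugp2 was at 2.20 (SE 1.39; 0.72 without control 8) and Pgm2 at 2.74 (SE 1.86). G6pc3, a glucose-6-phosphatase that human neutrophils need for their survival, was the 1 tested gene of gluconeogenesis. Its log2 fold change was 3.63 (SE 1.68, limma unadjusted p = 0.049, limma adjusted p = 0.997). It was under the filter when control 8 or 11, or LOY 3, 4, 10 or 14, was left out.

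Most of the enzymes share some sequence with other genes. Of the 50-base stretches in their annotated transcripts, 53.9% of those of Pgk1 also occur in other genes, all 5 of them pseudogenes, and so do 26% for Eno1, 25.8% for Pkm and 25.1% for Gapdh. For Gapdh the partners are 223 genes, of which 213 are pseudogenes. Partners of Eno1 include a retrogene copy that is itself listed. The share was 15.8% for Gpi1, 6.43% for Aldoa, 5.10% for Pfkp, 4.18% for Tpi1, 0.0298% for Pfkl and 0% for Hk2. The sources used here do not say how the counting treated such reads. The shares are of annotated sequence and not of reads, so how far the levels of enzymes with shared stretches are affected is not known. Partners that are themselves listed had summed means of 25115 normalised reads for Gpi1, 4200 for Eno1, 2547 for Pfkl, 611 for Pkm, 527 for Gapdh and 129 for Aldoa. These sums count all reads of the partners and not only those on shared stretches. No partner of Pgk1 or Tpi1 is listed. For Pfkp the partner is the neighbouring gene Pitrm1, with a mean of 43.4 normalised reads.

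The genes lie, on GRCm38, as follows, with all 10 annotated as protein coding. Hk2 is at chr6:82725025-82774454, Tpi1 at chr6:124810586-124814296 and Gapdh at chr6:125161715-125166467, all on the minus strand. Gpi1 is at chr7:34201330-34230336 and Aldoa at chr7:126795234-126800751, also on the minus strand. Pfkl at chr10:77986947-78010083 and Pfkp at chr13:6579768-6648777 are on the minus strand too. Pgk1 at chrX:106187100-106203699, Eno1 at chr4:150236721-150248879 and Pkm at chr9:59656368-59679375 are on the plus strand.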

How the data were processed

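RNA-seq of sorted heart neutrophils was measured in 12 libraries, 6 per genotype label. The submitters' processing notes name STAR 2.5.2b, featureCounts, Subread 1.5.2, Trimmomatic 0.36 and bcl2fastq 2.17, and the builds GRCm38 and mm10. Settings and the authors' test are not stated in the sources used here. For every glycolytic enzyme, the deposited log2 fold change equals that of DESeq2 on the recovered reads here (Hk2, -1.34 in both). Both called 303 genes, so calls by DESeq2 and by the deposited table are not independent. The signal values the authors deposited are read counts divided by 1 factor per library, per the file headers and the values: 100% of values above 0 were multiples of a single step in their library (tolerance 0.01 read). The authors deposited a log2 fold change and a p-value for 9722 of 11911 genes, and 303 have an adjusted p below 0.05. Library preparation kept neither strand nor molecular identifiers, so reads of overlapping genes are not separated, PCR duplicates are counted, and floors cover counting error only.

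The main test was limma 3.58.1 (R 4.3.3; trend, robust) on log2(normalised reads + 1), by genotype, for 6951 genes with 10 or more normalised reads in 6 or more libraries, with Benjamini-Hochberg adjustment over these genes. These log2 fold changes are differences of mean logs, so for a gene near 0 in some libraries they can lie far above or below the fold of the mean reads. Alternatives were DESeq2 1.42.0 and edgeR 4.0.16 on the recovered reads, no filter, quantile normalization, pseudocounts of 0.5 and 5, and each library left out. A fit without control 8 and LOY 10, principal transcript lengths, and correlations without control 8 were chosen after seeing the data. The fit was tested on simulated data. Pass criteria were set only for a fixed spread between libraries and not for the spread observed here. All 10 enzymes were named, and of each related list the genes past the threshold, up to 4 of lowest p, and other isozymes; 1 gene so chosen is not reported here. The enzymes and lists were chosen with earlier results of these data known. Symbols of 25 genes that were blank or had become dates were replaced from the annotation, in which 11896 identifiers were found. Promoters are from RefSeq, and all 10 symbols matched.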

Additional observations from a re-analysis of the deposited data

Results flagged for a closer look

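In 22 groups of 6 values, 1 per enzyme or summed measure and genotype, the gap between the most extreme library and its nearest neighbour was divided by the range of the group, and 4 gaps passed Dixon's 95% critical value. Chance alone passes about 5% of groups only where values are independent and normally distributed. That was not tested for these groups, so the 4 gaps cannot be set against 5%. Gaps on a log scale were not computed. Hk2 in control 8 had a gap of 0.686 of the range, at 1890.2 normalised reads beside 688 in the next library. Gapdh in control 8 had a gap of 0.666, at 1884 beside 7812. Hk2 in LOY 3 had a gap of 0.743, at 626 beside 258. Gpi1 in LOY 5 had a gap of 0.698, at 7331 beside 4408. Both gaps in the control group lie in 1 library, control 8.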

How the results depend on the processing

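In 19 alternative fits 0 of the 10 enzymes passed, and 19 of their 190 log2 fold changes changed sign. Hk2, Gpi1, Pfkl and Pkm kept 1 sign in all of them. The lowest adjusted p of an enzyme was 0.552 (Hk2, DESeq2). Without control 6, without control 7 and without LOY 4, 1 enzyme each had an unadjusted limma p below 0.05. Of all genes tested, 285 of 6564, 285 of 6613 and 280 of 6613 did so in these fits. No enzyme did in the other fits. The count of all genes called was 2, against 303 with DESeq2, 0 with edgeR, 0 with no filter and 0 without control 8 and LOY 10 together (979, 130, 466 and 262 at an unadjusted p below 0.05; 304 in the main test). It was 0 to 4 with each library left out, 0 without control 7, 8 or 12 or LOY 3, 4, 5, 14 or 15, 1 without control 2, 3 without control 6, 4 without control 11 and 2 without LOY 10. Signs turned for Pfkp (0.23 with DESeq2 and with edgeR), Tpi1 (-0.17 with DESeq2, -0.18 with edgeR) and Eno1 (-0.011 with edgeR). Without control 8 and LOY 10 together, Gapdh was at -0.19, Pgk1 at 0.23 and Eno1 at -0.066. With each library left out, the log2 fold change ran from -1.32 to -0.57 for Hk2, 0.057 to 0.43 for Gpi1, 1.44 to 3.06 for Pfkl, -0.76 to 0.45 for Pfkp, -0.35 to 0.0058 for Aldoa, -0.43 to 0.34 for Tpi1, -0.15 to 0.36 for Gapdh, -0.51 to 0.16 for Pgk1, -0.15 to 0.39 for Eno1 and -0.45 to -0.26 for Pkm. The correlation of Gapdh with Eno1 was -0.116 without control 8, -0.00053 without the 2 farthest libraries and -0.593 within LOY. The cause of these changes was not tested. The pathway genes called were 0 with limma and edgeR and 2 with DESeq2. No paired analysis was possible because control and LOY libraries have no replicate numbers in common.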

Other observations

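Among isozymes too low for the test, Aldoc, the brain form of aldolase, was at 346 normalised reads in control 7 and at 0 in the other 11 libraries. Bpgm, which makes the red cell metabolite 2,3-bisphosphoglycerate, was at 347 in LOY 14 and 169.9 in LOY 15, and at 1.5 or below in the other libraries. The authors' deposited table gives Bpgm a log2 fold change of 7.73 with an adjusted p of 0.158.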
